A study of Mus musculus with 4 samples.

Results

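The transcripts of 4 partners of the helicase eIF4A were examined for eIF4A2 binding: Eif4g1, Eif4g2, Pabpc1 and Pdcd4. Peaks were taken where the midpoint lay in a fixed mm9 window around each gene and on the strand of the gene, which gave 41 of the 47777 peaks in the list. Eif4g1 had 20 peaks, Eif4g2 had 16, Pabpc1 had 3 and Pdcd4 had 2. The windows were set by position and not by fold, but the 4 genes were chosen with earlier results of these data known.

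The list came from eCLIP of J1 mouse embryonic stem cells of strain 129S4/SvJae, kept without feeders in 15% serum with leukemia inhibitory factor (LIF). Cells were irradiated with ultraviolet light of 254 nm at 400 mJ/cm2, which links proteins to the RNA they touch. An antibody to eIF4A2 then recovered the protein with its RNA (IP), and RNA from before the recovery (input) gave the background. The 2 IP and 2 input libraries came from the same line, and no group carried a genetic change or a drug treatment in the labels. The authors deposited 1 list, named in the labels of all 4 libraries, that gives each peak the log2 of its IP over input ratio (the log2 fold). The folds are the authors' values and none was at or below a log2 of 1, which is 2-fold. A log2 fold printed as 1 below is slightly higher before rounding. The file does not state which libraries enter a fold and gives no value per library, so no fold here has an error and the depth is unknown.

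Translation of most mRNAs begins when a cap-binding complex recruits the small ribosomal subunit, and the DEAD-box helicase eIF4A unwinds the 5′ leader so that the ribosome can load and scan. eIF4G1 is the scaffold of this complex and holds eIF4A, the cap-binding protein eIF4E, eIF3 and poly(A)-binding protein. eIF4G2, also called DAP5 or NAT1, binds eIF4A and eIF3 but lacks the part of the scaffold that binds eIF4E, and embryonic stem cells need it to differentiate normally. PABPC1 coats the poly(A) tail and joins it to eIF4G, and its mRNA belongs to the class with a 5′ terminal pyrimidine tract. PDCD4 binds eIF4A through its MA3 domains and inhibits the helicase. The values below concern eIF4A2 on the RNAs that encode these proteins, not contacts between the proteins.

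The 2 scaffold transcripts held many peaks, and the transcripts of the tail-binding protein and of the inhibitor held few. The Eif4g1 and Eif4g2 windows together held 36 of the 41 peaks. Each window was set beside tiles of its own width laid over both strands of every chromosome. Among tiles of 32 kb that held a peak, 0.587% held at least the 20 peaks of Eif4g1. Among such tiles of 27 kb, 0.976% held at least the 16 of Eif4g2. The median tile with a peak held 2 peaks at each of the 4 widths. For Pabpc1, 34.9% of 30 kb tiles with a peak held at least 3, and for Pdcd4, 60.2% of 36 kb tiles with a peak held at least 2. Among tiles with a peak, the counts of Pabpc1 and Pdcd4 were thus common, and those of the 2 scaffold genes were near the upper end. Over all tiles, with or without a peak, the shares were 0.0596% for Eif4g1, 0.0887% for Eif4g2, 3.4% for Pabpc1 and 6.56% for Pdcd4. With only peaks of 4-fold or more counted, in the windows and the tiles alike, 4.67% of tiles with such a peak held at least the 5 of Eif4g1 and 33% held at least the 2 of Eif4g2. Among tiles with such a peak, the Eif4g2 count was then no longer near the upper end. Over all tiles these shares were 0.219% for Eif4g1 and 1.34% for Eif4g2. The windows were laid around genes and the tiles were not, and how abundant each RNA was is not in the list.

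**Figure D1:**
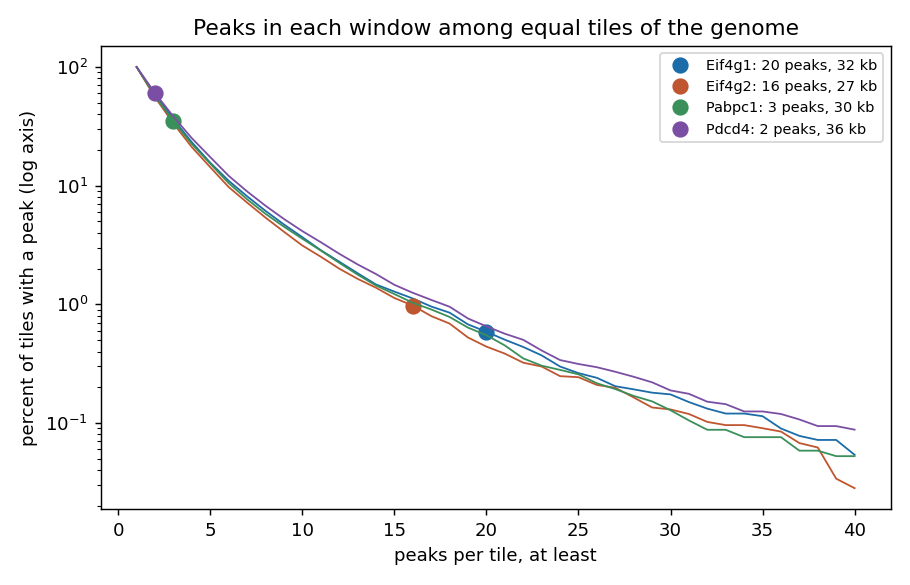
Share of genome tiles with a peak (vertical axis, percent, log scale) that held at least the number of peaks on the horizontal axis, with 1 curve for tiles as wide as each gene's window and a point at the count of that gene. Eif4g1 with 20 peaks and Eif4g2 with 16 lie below 1% of tiles, whereas Pabpc1 lies at 34.9% and Pdcd4 at 60.2%.

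Genomic length did not order the 4 genes as the counts did, whereas merged exon length nearly did. In the GRCm38 annotation (GENCODE M21), which was used for lengths and names only, Pdcd4 is the longest of the 4 genes at 37.6 kb and Pabpc1 the shortest at 14 kb. Eif4g1 is 24.6 kb and Eif4g2 is 15.3 kb. Merged exons total 10.2 kb in Eif4g2, 7.3 kb in Eif4g1, 6.54 kb in Pabpc1 and 3.13 kb in Pdcd4. That is the order of the counts, except that the 2 scaffold genes change places. Whether length bears on the counts was not tested. Per kb of merged exon, Eif4g1 had 2.74 peaks, Eif4g2 had 1.57, Pdcd4 had 0.638 and Pabpc1 had 0.459. Per kb of gene, the order of the 2 scaffold genes turned, with 1.05 for Eif4g2 and 0.814 for Eif4g1, while Pabpc1 had 0.214 and Pdcd4 had 0.0531. Which of the 2 scaffold genes was the denser therefore depended on the length used. Whether the peaks lie in exons or introns was not examined. The Pdcd4 window of 36 kb cannot hold a gene of 37.6 kb (45.4 kb in RefSeq) in full. Widening the window by 5000 bases at each end added 0 peaks on its strand. The same widening brought Eif4g1 from 20 peaks to 23.

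The 4 windows held 0 peaks on the strand opposite to the gene. The surroundings of Eif4g2 and Pabpc1 were empty, with 0 peaks on either strand in the 40 kb to each side of the window. Empty stretches were usual, since only 9.09% to 10.9% of tiles as wide as the windows, counted per strand, held a peak. The nearest other peak on the strand of Pabpc1 lay 95398 bases beyond the 3′ edge of its window, and for Eif4g2 it lay 446773 bases beyond. Around Eif4g1 the same flanks held 11 peaks on its strand and 9 on the other. The nearest of them lay 2849 bases before the 5′ edge of the window. Around Pdcd4 the flanks held 4 peaks on its strand and 2 on the other, and the 4 began 19352 bases past its 3′ edge. Those 4 had log2 folds of 1.3 to 4.05, and 3 of them were above either Pdcd4 peak. In GRCm38 the gene after Pdcd4 is Shoc2. Gene limits in mm9 were not used, and in GRCm38 Fam131a follows Eif4g1 on the same strand, so the last Eif4g1 peaks are assigned by the window alone.

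The fold of the peaks was moderate and mostly not above that of the list. Over the 41 peaks the median log2 fold was 1.48 (2.79-fold), beside 1.65 (3.15-fold) over all 47777 peaks, and 15 of the 41 lay above the list's median. Of the 41, 8 (19.5%) were enriched 4-fold or more (log2 of 2), beside 28.3% of all peaks. Enrichment of 8-fold or more (log2 of 3) was found for 1 of them, in Eif4g2, beside 4.03% of all peaks. Peaks of 1 gene share a transcript and are not replicates, so these shares carry no test.

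The 4 genes differed in where their folds lay. Eif4g1 folds ran from a log2 of 1.04 to 2.52 with a median of 1.64, close to the list, and 5 of the 20 reached 4-fold. Eif4g2 ran from 1 to 3.05 with a median of 1.39, and 2 of its 16 reached 4-fold. The 3 Pabpc1 folds were 1.08, 1.17 and 1.17, all near the lower limit of the list and below its first quartile of 1.29. The 2 Pdcd4 folds were far apart, at 1.24 and 2.82. The ranges of Eif4g1, Eif4g2 and Pdcd4 overlapped one another. Pabpc1 lay inside the lower part of the Eif4g1 and Eif4g2 ranges and below both Pdcd4 peaks.

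**Figure D2:**
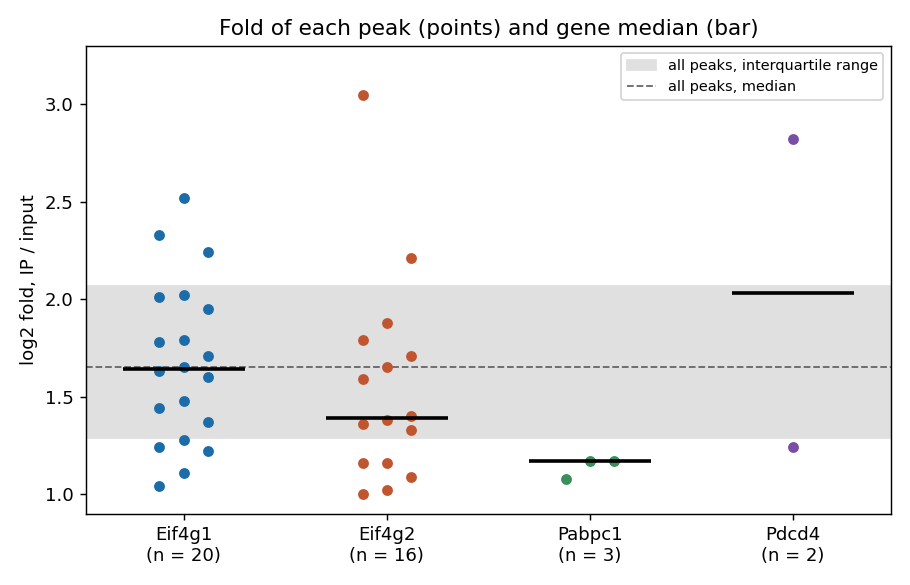
Log2 fold of IP over input (vertical axis) of each peak, shown as a point by gene, with the gene's median as a black bar and the interquartile range and median of all 47777 peaks as a grey band and dashed line. The 3 Pabpc1 peaks sit below the band, the Eif4g1 median of 1.64 lies at the dashed line, and the highest point is the Eif4g2 peak at 3.05.

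Eif4g1 peaks were spread over 20 kb in 5 groups, when peaks at most 1000 bases apart were joined. The span of the peaks equals 99.1% of the RefSeq length of the gene and 81.3% of its GENCODE length, both in GRCm38. The first group, the 5′-most, held 3 peaks within 662 bases of chromosome 16 (20672892 to 20673553). Their log2 folds were 2.01, 2.24 and 2.33, and all 3 were at least 4-fold. Beyond this group only 2 of the other 17 peaks reached 4-fold, and their median was 1.6. A single peak of 4 bases followed 2020 bases further on, at 20675574 to 20675577, and its log2 fold was 1.63.

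The largest Eif4g1 group held 11 peaks over 3605 bases, from 20678700 to 20682304, and covered 9.1% of that stretch. It contained both the lowest and the highest fold of the gene. Its 6 upstream peaks had log2 folds of 1.04, 1.24, 1.6, 1.44, 1.11 and 1.28 in 5′ to 3′ order. Its 5 downstream peaks had 1.78, 1.71, 2.52, 1.79 and 1.95. The downstream peaks were thus all higher than the upstream ones. This split was noticed in the values and has no test. The highest, at 20681626 to 20681647, touched its 5′ neighbour end to end, yet the neighbour had 1.71 (3.26-fold against 5.73-fold). The widest Eif4g1 peak, at 20679879 to 20679939, had 61 bases and a log2 fold of 1.28.

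The remaining Eif4g1 peaks lay far downstream. A lone peak at 20684198 to 20684232 had a log2 fold of 2.02. The next 8274 bases, the longest gap in the gene, held no peak. The last 4 peaks covered 32.4% of 361 bases, from 20692507 to 20692867. Their log2 folds were 1.22, 1.37, 1.48 and 1.65, so none reached 4-fold, and all 4 were below the lowest of the 3 peaks in the first group. GRCm38 annotates the small nucleolar RNA gene Snord66 within Eif4g1, and whether any peak lies at it was not examined.

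**Figure D3:**
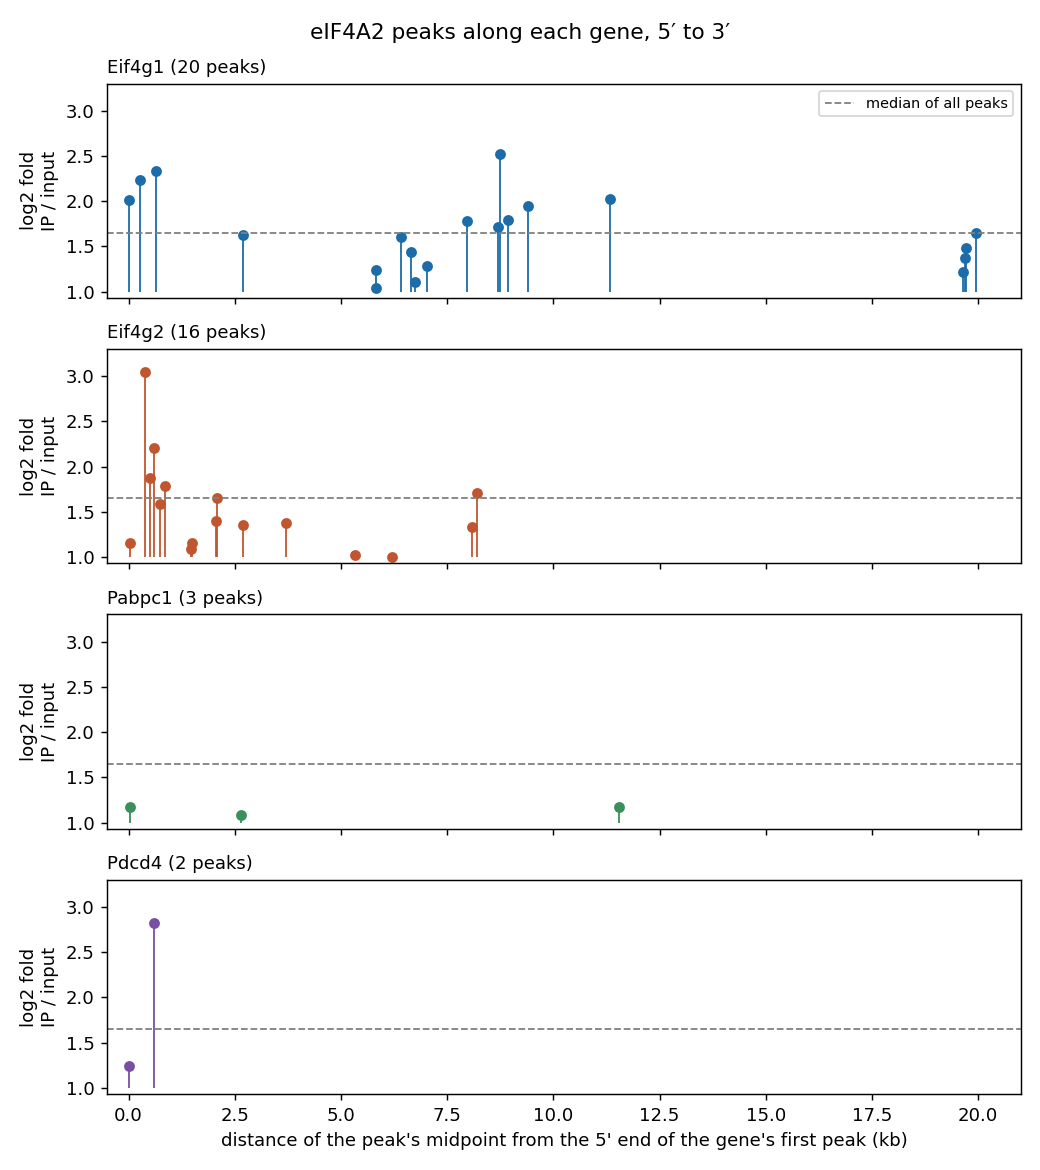
Each peak of the 4 genes by the distance of its midpoint from the 5′ end of the gene's first peak (horizontal axis, kb) and its log2 fold of IP over input (vertical axis), with the median of all peaks dashed. Eif4g1 peaks extend over 20 kb with a gap before the last 4, and the 2 Eif4g2 peaks above 4-fold both lie in the first kb.

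Eif4g2 peaks were denser in the 5′ part of their span. They spanned 8.22 kb of the minus strand of chromosome 7, or 53.8% of the GENCODE length of the gene. Within 1000 bases of the start of the first peak lay 6 of the 16 peaks, which covered 37.7% of 887 bases (118225636 to 118226522). In 5′ to 3′ order their log2 folds were 1.16, 3.05, 1.88, 2.21, 1.59 and 1.79. Both Eif4g2 peaks of at least 4-fold were among them. The other 10 peaks had log2 folds from 1 to 1.71 with a median of 1.34, against 1.83 for the first 6. The ranges overlapped, and the choice of 1000 bases was made after the values were seen.

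The most enriched of all 41 peaks lay in Eif4g2 at 118226130 to 118226135 and had 3.05 on the log2 scale (8.27-fold). It was 6 bases wide, beside a median width of 43 bases for the peaks of this gene. Its 3′ neighbour, at 118225984 to 118226060, was 77 bases wide with a log2 fold of 1.88 (3.67-fold). The peak after that, at 118225898 to 118225950, had 2.21 (4.62-fold). Another peak of 6 bases further downstream, at 118225021 to 118225026, had only 1.16.

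Downstream, Eif4g2 folds were low. Of the first 12 peaks, which formed 1 group over 3705 bases, the last 6 had log2 folds of 1.09, 1.16, 1.4, 1.65, 1.36 and 1.38. Among these, 2 pairs touched end to end. Next came 2 peaks at 118220284 to 118221205 with log2 folds of 1.02 and 1, the lowest in the 4 genes. The wider of that pair had 83 bases, the most of any of the 41 peaks. The last 2 peaks lay within 150 bases (118218303 to 118218452), with 1.33 and 1.71. Where the span of the peaks lies in the gene was not examined. GRCm38 annotates LOC115486847 within Eif4g2, and whether any peak lies in it was not examined either.

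Pabpc1 had 3 isolated peaks of similar width and fold on the minus strand of chromosome 15. The 5′-most, at 36538245 to 36538293, was 49 bases wide with a log2 fold of 1.17 (2.26-fold). The second, at 36535612 to 36535667, lay 2577 bases downstream and had 1.08 (2.12-fold) over 56 bases. The third, at 36526723 to 36526774, lay a further 8837 bases downstream and had 1.17 (2.25-fold) over 52 bases. No 2 of them were close enough to join at 1000 bases, and together they spanned 82.6% of the GENCODE length of the gene. Because the list begins at 2-fold, weaker binding elsewhere on Pabpc1 would not appear in it.

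Pdcd4 had 2 peaks within 612 bases of the plus strand of chromosome 19, or 1.63% of the GENCODE length of the gene. The first, at 53977890 to 53977928, had a log2 fold of 1.24 (2.36-fold) over 39 bases. The second, at 53978470 to 53978501, had 2.82 (7.08-fold) over 32 bases, the second highest of the 41 peaks. It stood above 93.5% of the list, and the first above 15% of it. The window of the eIF4A inhibitor therefore held 1 strongly and 1 weakly enriched position, 541 bases apart, and none elsewhere. Both folds reduce to ratios of small whole numbers, described below. In GRCm38 the genes Gm30990 and Bbip1 overlap Pdcd4, and whether the peaks lie in them was not examined.

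How finely a fold is resolved differed between these genes. After a constant of 0.24 on the log2 scale was subtracted, each of the 41 folds equalled one whole number divided by another that was no larger than 200 (to a relative tolerance of 1e-07). If the folds were made from read counts scaled by 1 constant, which the file does not state, the reduced ratio gives the smallest counts possible. The strong Pdcd4 peak reduced to 6 to 1 and the weak one to 2 to 1. The list holds 665 peaks with the same fold as the former and 4301 with that of the latter. The 8.27-fold Eif4g2 peak reduced to 7 to 1, a value shared by 415 peaks. By contrast, the Pabpc1 folds reduced to 216 to 113, 43 to 24 and 145 to 76.

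Large denominators were frequent in these genes. A denominator of at least 20 was found for 25 of the 41 peaks (61%), beside 10.6% of all peaks. It was found for 13 of 20 peaks in Eif4g1, 9 of 16 in Eif4g2, 3 of 3 in Pabpc1 and 0 of 2 in Pdcd4. The median denominator was 25 in Eif4g1, 22.5 in Eif4g2 and 76 in Pabpc1, beside 4 over the list. A denominator of 1 was found for 5 of the 41, or 12.2%, beside 27.8% of all peaks.

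Among the 8 peaks of at least 4-fold, 4 had a denominator of at least 20, beside 4.61% of all such peaks in the list. A denominator of 1 was found for 3 of the 8 (37.5%), close to the 37.8% of all such peaks. Those with a denominator of at least 20 were, in Eif4g1, the peaks with log2 folds of 2.52 (97 to 20), 2.01 (92 to 27) and 2.02 (89 to 26). In Eif4g2 it was the peak with 2.21 (90 to 23). The other 4 reduced to 4 to 1 and 17 to 4 in Eif4g1, 7 to 1 in Eif4g2 and 6 to 1 in Pdcd4. The 2 highest folds of the 41 thus had a denominator of 1, and the third highest, in Eif4g1, had one of 20. A reduced ratio does not exclude larger counts behind a value such as 7 to 1.

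**Figure D4:**
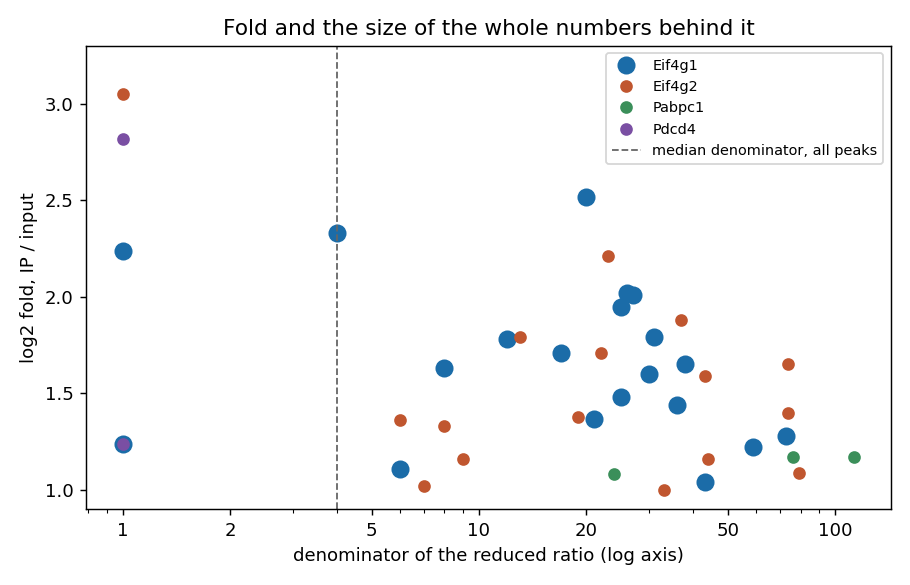
Log2 fold of IP over input (vertical axis) against the denominator of the reduced whole-number ratio (horizontal axis, log scale) for the 41 peaks, coloured by gene, with the median denominator of 4 over all peaks dashed. The 2 highest peaks lie at a denominator of 1, the Pabpc1 peaks lie at 24 to 113, and at a log2 fold of 1.24 an Eif4g1 and a Pdcd4 peak coincide.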

How the data were processed

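The eCLIP libraries (2 IP, 2 input, paired-end reads of 50 bp) were trimmed and aligned by the authors with cutadapt 1.18 and STAR 2.6.1b on mm9, per the submitters' processing notes. Which caller and significance filter made the peaks, and how the replicates were joined, is not stated in the labels or the file. The deposited values are log2 folds of IP over input per peak, calculated by the authors; the scale was read from the values, since no header states it.

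From these, peaks were counted by midpoint and strand in 4 windows, with starts counted from 1. Tiles as wide as each window were laid from position 1 to the last peak of each chromosome, per strand. The constant in the folds was chosen to give the smallest whole numbers over the list, and peaks without a ratio up to 200 counted as having a denominator of at least 20. The constant, the reduced ratios and the count in a window were tested on simulated data with mostly small denominators. Grouping, merging and the counts in the flanks were not tested in that way. Python 3.11.15, numpy 2.4.6, scipy 1.17.1 and pandas 2.3.3 were used. GRCm38 annotation gave names and lengths only, and no coordinates were converted. Sequences under the peaks and other genes of the pathway were not analysed here.

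The 4 genes and the ways of describing them were chosen with earlier results of these data known. Named peaks were all those of a gene with at most 12. For other genes the rule took the end peaks, the 5 highest, the lowest, the widest and the largest group; further peaks were named after their values were seen.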

Additional observations from a re-analysis of the deposited data

How the results depend on the processing

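Of 63 alternative values, 47 stayed within the set range (1.5 times for counts, the standard deviation over a gene's peaks for a median, the Wilson 95% interval for a share of tiles). Part of the 47 could hardly move. Counting both strands could change no count, since the opposite strand held 0 peaks. Counting any overlap and shrinking the windows by 2000 bases left every count as it was. The standard deviation for Pdcd4 was 1.12 and came from only 2 peaks. With peaks under a log2 of 1.5 removed there were 12 peaks in Eif4g1, 7 in Eif4g2, 0 in Pabpc1 and 1 in Pdcd4, and a log2 fold of at least 2 left 5, 2, 0 and 1. The median log2 fold of all peaks, 1.65, lies above the first limit, and 28.3% of all peaks reach the second. With the latter limit applied to the tiles too, 4.67% of tiles with a peak held as many as Eif4g1 and 33% as many as Eif4g2. The 100% for Pdcd4 is fixed by its count of 1, since every such tile holds at least 1. Joining at 200 bases gave 14 groups in Eif4g1, 9 in Eif4g2 and 2 in Pdcd4, and joining at 5000 bases gave 2 in Eif4g1 and 1 in Eif4g2. Merging peaks within 50 bases left 16 in Eif4g1 and 13 in Eif4g2, and a minimum width of 20 bases left 15 and 12. No paired analysis was possible because the list gives only 1 fold per peak, which also prevented leaving a replicate out. The depth is unknown.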
